A study of Mus with 12 samples.

Results

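The genes described here are the serpins, the Kazal-type inhibitors (Spink), the whey acidic protein (WAP) four-disulfide core inhibitors (Wfdc) and Slpi, in the uterus of pregnant mice. Members were chosen by name: a table row belonged when one of its gene symbols was Slpi or began with Serpina to Serpini, Spink or Wfdc and a number, and when the row carried an Ensembl transcript. This gave 93 of the 87235 rows of the implantation table and 81 of the 40787 rows of the labor table, which together name 100 symbols, 82 of them in both. RNA of the whole uterus was sequenced from pregnant ICR mice, an outbred stock, with 1 mouse behind each library. The labels give an age of 8 weeks for all mice. The methods give an age at mating, by which mice of the later days would have been older at collection. Each group held 3 libraries: embryonic days E0.5 and E4.5 form the implantation stage, and the labor stage consists of E15.5 and E18.5. E0.5 was compared with E4.5 and E18.5 with E15.5, days picked in the study for the rise and fall of progesterone around implantation and labor. The tables of the stages were assembled and normalized separately, so levels are compared within a stage only.

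Most serpins trap a serine protease by offering a reactive loop that, once cut, snaps into the body of the inhibitor and carries the protease with it. Some have other targets or none: Serpinh1 is a collagen chaperone. Clade A and the clades C to I are largely secreted, clade B serpins act mostly inside cells, and Spink, Wfdc and Slpi proteins are small secreted inhibitors of epithelia. In the uterus these inhibitors face proteases of the implanting embryo, of decidual granzyme-bearing killer cells and of incoming neutrophils.

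The families are clustered in the genome. Of the 29 Serpina symbols 28 lie on chromosome 12, the 29 Serpinb symbols lie on chromosomes 1 (12) and 13 (17), 9 of the 12 Spink symbols lie on chromosome 18, and 15 of the 19 Wfdc and Slpi symbols lie on chromosome 2. Some close paralogs were merged in the assembly. In all, 8 member rows of the implantation table and 3 of the labor table carry several gene symbols. In some of these the other symbol is not a member. Slpi shares its row with Mir7678 in both tables, and Serpinh1 shares its row with Gm18943 in the implantation table. Reads of near-identical copies (Serpina1, Serpina3, Serpinb6 and Serpinb9 groups) may be split between rows in a way that is not stated. Positions below are those of the implantation table, where 99 of 100 member symbols overlapped the RefSeq gene of the same name in GRCm38. Each spans a whole gene, with exons and introns.

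Levels are FPKM (fragments scaled to transcript length and library size), given for replicates 1, 2 and 3 in that order. Total counts ran from 58020989 to 70906881 at the implantation stage, and the depth of the labor libraries is unknown. A few markers set libraries apart. E4.5 replicate 3 held 888 FPKM over 9 ovary markers (Cyp11a1 alone 378) against 8.35 to 10.8 in the other implantation libraries, 94.2 FPKM over 4 oviduct markers against 3.74 to 19.9, and 154.6 FPKM over 7 uterine markers against 508 to 808. E0.5 replicate 1 held 19.9 FPKM over the oviduct markers, against 5.25 and 5.20 in E0.5 replicates 2 and 3. It also held 63.8 FPKM over 5 adipocyte markers, against 25.1 and 21.8 there. E15.5 replicate 1 held 1427 FPKM over 8 stromal and decidual markers (Prl8a2 alone 1342) against 127 to 181.97 in the other labor libraries. The summed level of 7 epithelial markers was 235 to 280 FPKM at E0.5, 75.5 to 161 at E4.5, 198 to 417 at E15.5 and 615 to 845 at E18.5. That of the neutrophil markers was 349 to 537, 3.85 to 20.8, 38.3 to 66.1 and 163 to 253. Outside E15.5 replicate 1, most of it in each library was Ltf (lactoferrin, which uterine epithelium also makes). In E15.5 replicate 1, Ltf was at 10.99 FPKM and S100a8 at 24.0. Without Ltf the list summed to 0.0857 to 1.27 FPKM at E0.5, 0.798 to 1.81 at E4.5, 1.51 to 27.3 at E15.5 and 1.45 to 5.62 at E18.5, so the days of each stage overlapped. The part of these shifts in the results below was not tested except where a value without a library is given. In whole tissue, fewer cells of a type and less RNA per cell cannot be told apart.

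The member rows together held 162 to 187 FPKM per library at the implantation stage and 746 to 1182 at the labor stage. A few rows carried most of it. Wfdc2, Serping1, Serpinh1, Serpinf1 and the Serpinb6a/c row made up 64.8% of the members' FPKM at E0.5. At E4.5 the leading 5 were Wfdc2, Serping1, Serpinh1, Serpine2 and Wfdc1, with 50.9%. Wfdc2, the Serpina1c/e row, Serpinh1, Serping1 and Serpinf1 made up 76.0% at E18.5, and the leading 5 held 69.4% at E15.5. At the other end, 21 of the 93 implantation rows were listed at 0 in all 6 libraries.

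To ask which inhibitors differ between E0.5, shortly after mating, and E4.5, the time of implantation, E0.5 was compared with E4.5 with edgeR on the counts. Of the 93 rows, 46 had a mean of at least 0.1 FPKM and were tested. The study called a row by its log2 fold change, 1 or more in either direction, together with a p under 0.05 before adjustment. This criterion was met by 19 members, or 41.3% beside 12.2% of all 59732 rows tested and 12% of those with an Ensembl transcript. Of these, 11 were higher and 8 lower at E0.5 (6.37% and 5.82% of all tested rows). A row that passes the filter only through the day on which it is high had to differ, so these shares describe the tested rows and not the families. Serpine2, Spink12, Serpinb5 and the Serpina9/11 row also passed an adjusted p under 0.05 (1.22% of all tested rows did). The days did not overlap in 19 rows (25.2% of all tested rows). Without E4.5 replicate 3, 20 rows met the criterion and 15 passed the adjusted p, in a fit in which the shares of all tested rows also rose, to 14.3% and 6.19%. Without any single E0.5 library or E4.5 replicate 1 the adjusted count fell to 0 by edgeR (17 to 21 rows at an unadjusted p under 0.05), and without E4.5 replicate 2 to 1, which was none of these 4 rows. The 4 rows thus lost the adjusted p in 5 of the 6 fits that leave out a library. Of all tested rows 0% to 0.0771% and 0.253% passed it in those fits. The median log2 fold change of the tested members was 0.002, and that of all tested rows was -0.01.

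Serpine2 was higher at E4.5 than at E0.5 and passed the adjusted p. The gene (protease nexin-1, an inhibitor of thrombin, urokinase and tissue plasminogen activator; chr1:79794197-79858696, minus strand) was listed at 1.56, 1.46 and 0.783 FPKM at E0.5 and at 9.96, 7.42 and 19.5 at E4.5. Every E4.5 library exceeded every E0.5 library, and the ratio of the means was 9.69 in favour of E4.5. The log2 fold change was -3.25 ± 0.44 (SE; edgeR, adjusted p = 0.0321), and -2.80 without E4.5 replicate 3, the library with ovary markers and the highest Serpine2 level. Its targets Plau and Plat did not meet the criterion, with log2 fold changes of 0.06 ± 0.59 and 1.03 ± 0.53.

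Serping1, Serpinf1 and Serpinh1, the abundant serpins of clades F to H, did not meet the criterion. Serping1 (C1 inhibitor, which blocks the complement proteases C1r and C1s) was high at 37.3, 41.1 and 39.0 FPKM at E0.5 and 22.8, 25.1 and 13.5 at E4.5. The days did not overlap, but the log2 fold change of 0.94 ± 0.26 stayed under 1. Its targets C1ra (0.30 ± 0.19) and the C1s1/C1s2 row (0.87 ± 0.29) also stayed under 1. Serpinf1 (pigment epithelium-derived factor, an anti-angiogenic serpin without inhibitory activity) averaged 10.3 ± 2.55 (SD, n = 3) and 8.40 ± 1.31 FPKM, and Serpinh1 (Hsp47) averaged 12.6 ± 4.03 and 18.9 ± 9.40. Both pairs of days overlapped. Serpini1 (neuroserpin, an inhibitor of tissue plasminogen activator) was low and met the criterion with 0.382 ± 0.047 FPKM at E0.5 and 0.868 ± 0.258 at E4.5. Its log2 fold change was -1.18 ± 0.32, and leaving out E4.5 replicate 1 took it to -0.96, short of the criterion.

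In clade A, all 3 rows of Serpina1, the mouse alpha-1-antitrypsin genes that restrain neutrophil elastase, were higher at E0.5. The merged row of Serpina1a, Serpina1c and Serpina1e was listed at 7.00, 3.17 and 4.42 FPKM at E0.5 and at 0.201, 0.921 and 0.843 at E4.5, with a fitted log2 fold change of 2.92 ± 0.58 (edgeR, adjusted p = 0.0709). Serpina1b was listed at 2.86, 1.43 and 1.94 FPKM against 0.579, 0.431 and 0.480, a log2 fold change of 2.05 ± 0.35 (adjusted p = 0.0520). Serpina1d averaged 0.657 ± 0.271 against 0.0746 ± 0.0725 FPKM, and its 3.15 ± 1.17 lost the criterion without E0.5 replicate 2 or 3 or E4.5 replicate 2 (2.57 to 4.06 over the 6 fits that leave out a library). In each row every E0.5 library lay above every E4.5 library. Of the neutrophil list, Ltf and Cxcr2 were higher in every E0.5 library, and the other 7 markers were not. The 10 yolk sac and liver markers summed to 15.7 to 33.7 FPKM at E0.5 and 10.8 to 32.1 at E4.5, mostly Trf. Among them Rbp4 was higher in every E0.5 library, Ttr and Apob were lower in each, and Alb and Afp were at 0 in all 6 libraries. The 5 adult liver markers summed to 19.8 to 76.4 FPKM at E0.5 and 0.577 to 10.1 at E4.5. Most of this was Cyp2e1 (16.3 to 72.2 and 0.520 to 8.90 FPKM), Uox was also higher in every E0.5 library, and Cps1, Tat and Cyp3a11 were at 0 at E0.5. The 5 adipocyte markers summed to 21.8 to 63.8 and 3.55 to 28.7 FPKM, and only Fabp4 of them was higher in every E0.5 library. The 5 macrophage markers summed to 37.9 to 52.5 and 19.9 to 29.5 FPKM. Of these, Adgre1, Csf1r and Mrc1 were each higher in every E0.5 library, while Cd68 and C1qa overlapped between the days.

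The merged Serpina9/11 row (chr12:103980243-104013755, minus strand; Serpina9 is known from germinal centre B cells) was listed at 1.27, 1.86 and 2.99 FPKM at E0.5 and at 0.0395, 0.157 and 0.0755 at E4.5. It was well separated between the days, with a log2 fold change of 4.49 ± 0.60 (edgeR, adjusted p = 0.0304). The Serpina3 genes, relatives of antichymotrypsin, did not move together. Serpina3g (an inhibitor of cathepsins) was listed at 3.36, 3.27 and 1.85 FPKM at E0.5 and at 1.02, 0.872 and 2.21 at E4.5, and met the criterion at 1.07 ± 0.43 although the days overlapped. It lost it without E0.5 replicate 1 or 2 or E4.5 replicate 1 or 2, over a range of 0.82 to 1.55. The Serpina3k/m/n row was listed at 1.62, 1.59 and 1.33 FPKM against 6.71, 4.98 and 0.641. Its E4.5 replicates 1 and 2 were above all E0.5 libraries and replicate 3 was below them, and its log2 fold change of -1.46 ± 0.75 became -1.97 without that replicate.

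E4.5 replicate 3 alone carried a pair of clade A rows. The Serpina3a/j row stood at 14.4 FPKM there, at 0 in the other E4.5 libraries and at 0.0209, 0 and 0 at E0.5. Its log2 fold change of -9.15 ± 3.58 met the criterion and turned to 4.41 without that library, and it also lost the criterion without any single E0.5 library. Serpina5 (protein C inhibitor) was listed at 12.4 FPKM in that library and at 0 in the other 5, and did not meet the criterion.

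In the clade B cluster on chromosome 1, 2 of 3 tested rows met the criterion, both higher at E0.5 (6.37% of all tested rows were), and on chromosome 13, 3 of 5, all lower (5.82%). The difference between the clusters was not tested. Serpinb5 (maspin, an epithelial serpin; chr1:106861173-106883348, plus strand) was listed at 1.09, 1.44 and 1.36 FPKM at E0.5 and at 0.145, 0.126 and 0.0334 at E4.5. The E0.5 libraries were alike and all above E4.5, with a log2 fold change of 3.64 ± 0.58 (edgeR, adjusted p = 0.0454). In the same cluster Serpinb8 (an inhibitor of furin) was listed at 1.48, 1.86 and 2.30 against 0.712, 0.855 and 1.26 FPKM, a smaller difference of 1.02 ± 0.29 that lost the criterion without E0.5 replicate 3 or E4.5 replicate 1 or 2 (0.84 to 1.25).

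On chromosome 13, Serpinb9b (a paralog of the granzyme B inhibitor Serpinb9; chr13:33027416-33041884, plus strand) was listed at 0.0368, 0 and 0.0129 FPKM at E0.5 and at 5.47, 4.70 and 0.0959 at E4.5. It was nearly absent from E0.5 and from E4.5 replicate 3, and the log2 fold change was -7.58 ± 1.73 (edgeR, adjusted p = 0.0943). Serpinb9 itself was listed at 2.79, 2.65 and 2.85 against 4.86, 3.90 and 9.20 FPKM, with a log2 fold change of -1.09 ± 0.32. Serpinb1a (an inhibitor of neutrophil elastase and cathepsin G) was listed at 1.91, 2.89 and 3.47 against 3.83, 5.62 and 9.57 FPKM, with -1.17 ± 0.37. For both, every E4.5 library was the higher one, but the largest value came from E4.5 replicate 3, and without it the log2 fold changes were -0.69 and -0.78, short of the criterion. Serpinb1a also lost it without E0.5 replicate 1 (-1.41 to -0.78 over the fits that leave out a library). The Serpinb6a/c row (Serpinb6a inhibits cathepsin G) was listed at 5.36, 5.48 and 6.0 against 4.89, 4.87 and 19.5 FPKM, and its -0.76 ± 0.53 became 0.19 without that replicate. Serpinb9c to Serpinb9h, 6 rows, were listed at 0 in all 6 libraries of the stage, as were 9 of the 11 trophoblast and placenta markers.

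Among the Kazal inhibitors, Spink12 and Spink1 ran in opposite directions. Spink12 (chr18:44104407-44108543, plus strand) was listed at 5.22, 5.56 and 4.63 FPKM at E0.5 and at 0, 0 and 0.0859 at E4.5. The few E4.5 reads were 8 counts, all in replicate 3, and the log2 fold change was 7.28 ± 1.19 (edgeR, adjusted p = 0.0478). Spink1 (a trypsin inhibitor, called Spink3 in older mouse work; chr18:43728082-43737557, minus strand) was listed at 0.0610, 0 and 0.00636 FPKM at E0.5 and at 10.5, 13.5 and 0.285 at E4.5. It was thus high in E4.5 replicates 1 and 2 and low in replicate 3, though still above E0.5 there. Its log2 fold change was -8.43 ± 1.89 (adjusted p = 0.0908), and -8.99 without replicate 3 (adjusted p = 0.00567, within a range of 0.000373 to 0.278 over all alternatives).

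Of the Wfdc genes and Slpi, 3 of 13 tested rows met the criterion, beside 12.2% of all tested rows. Wfdc16 (chr2:164634707-164638796, minus strand) was listed at 5.02, 3.25 and 4.80 FPKM at E0.5 and at 0, 0.110 and 0 at E4.5, where 11 counts were seen in all. The log2 fold change was 6.74 ± 1.29 (edgeR, adjusted p = 0.0644). Wfdc8, in the same cluster, was listed at 2.20, 0.683 and 0.228 against 0, 0.0765 and 0.0580 FPKM, and its 4.53 ± 1.34 lost the criterion without E0.5 replicate 1 (3.37 to 5.17). Wfdc1 (ps20, a growth-restraining secreted protein of smooth muscle and stroma; chr8:119666365-119688222, plus strand) ran the other way, at 1.91, 2.90 and 2.07 against 16.7, 10.5 and 5.15 FPKM. All E4.5 libraries were above all E0.5 libraries, and the fitted log2 fold change was -2.24 ± 0.48 (adjusted p = 0.0802).

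The most abundant member, Wfdc2 (HE4, an epithelial secreted protein), was listed at 43.7, 45.8 and 44.1 FPKM at E0.5 and at 24.2, 44.3 and 8.64 at E4.5. The E0.5 libraries were nearly equal, 1 E4.5 library lay among them, and the log2 fold change was 0.80 ± 0.52. Slpi (an inhibitor of neutrophil elastase and cathepsin G) was listed at 4.22, 1.11 and 0.835 against 2.01, 0.532 and 0.418 FPKM. The days overlapped, and its 1.01 ± 0.85 became -0.03 without E0.5 replicate 1. The 20 other tested members, which did not meet the criterion and were not named by rule, had log2 fold changes from -12.47 (Serpina5) to 3.08 (Wfdc13). The plot of levels at E0.5 and E4.5 shows the named rows in every library.

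**Figure D1:**
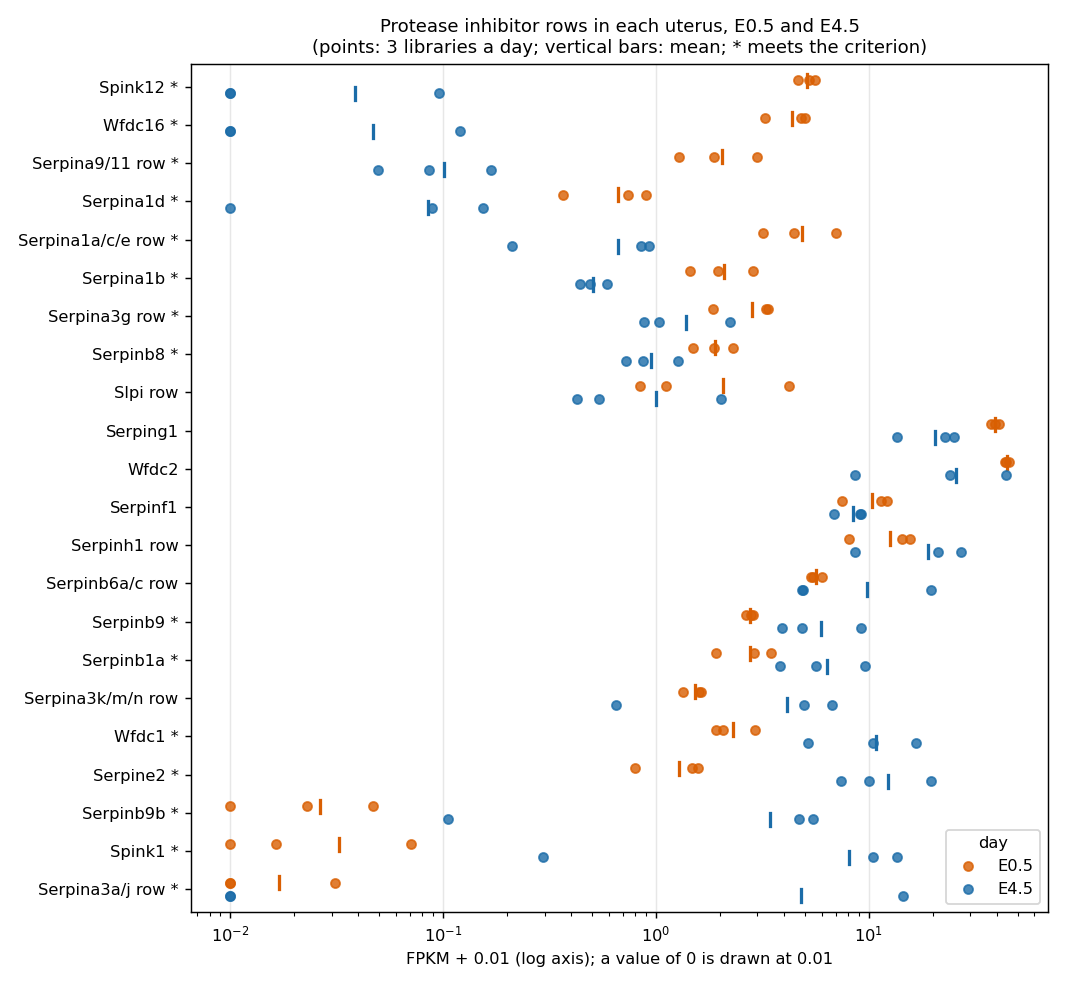
Level of the named protease inhibitor rows in each library of E0.5 (orange) and E4.5 (blue), as FPKM + 0.01 on a log axis, with a bar at the mean of 3 libraries and a star where the study's criterion is met. Spink12 and Wfdc16 sit at 3.25 to 5.56 FPKM at E0.5 and at or under 0.110 at E4.5, while Spink1 and Serpinb9b are high in only 2 of the 3 E4.5 libraries.

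Of 58 proteases, binding partners and other inhibitors, 46 rows were tested and 11 met the criterion, 6 higher and 5 lower at E0.5, beside the 12.2% of all tested rows given above (6.37% and 5.82%). Prss28 and Prss29, the implantation serine proteinases, were at 0.0817 ± 0.0228 and 1.67 ± 2.02 FPKM at E0.5. At E4.5 they were listed at 147, 332 and 3.44 and at 446, 622 and 5.92, so that E4.5 replicate 3 was low here as it was for Spink1 and Serpinb9b. The log2 fold changes were -10.82 ± 1.79 for Prss28 (edgeR, adjusted p = 0.0496) and -7.75 ± 1.94 for Prss29. Hgfac, the activator of hepatocyte growth factor, averaged 10.4 ± 1.54 FPKM at E0.5 and 0.673 ± 0.222 at E4.5, and was higher at E0.5 by a log2 fold change of 3.94 ± 0.28 (adjusted p = 0.00749). The serine proteases Prss23 (1.75 ± 0.32), Htra3 (1.66 ± 0.43) and hepsin, Hpn (1.57 ± 0.41), and the gelatinase Mmp9 (2.24 ± 0.46), met the criterion in the same direction. Without E4.5 replicate 3, 18 rows of this list met it, beside 14.3% of all rows tested in that fit.

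To ask which inhibitors differ before labor, E18.5 was compared with E15.5 with limma on log2(FPKM + 0.1), on which low genes appear to change by less than they do. Of the 81 rows 58 were tested, and 14 met the criterion, which is 24.1% beside 6.05% of all 30928 rows tested and 5.19% of those with an Ensembl transcript, with the same limit from the filter. Of these, 10 were higher and 4 lower at E18.5 (3.11% and 2.93% of all tested rows). By limma none passed an adjusted p under 0.05 (0.0259% of all tested rows did), and 19 had an unadjusted p under 0.05 (12.2% of all tested rows did). The days did not overlap in 21 rows (19.9% of all tested rows). Without E15.5 replicate 1, 15 rows met the criterion and 2 passed the adjusted p, beside 5.01% and 0.0841% of all tested rows. The median log2 fold change of the tested members was 0.17, and that of all tested rows 0.02. The plot of fold changes by family shows both stages.

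**Figure D2:**
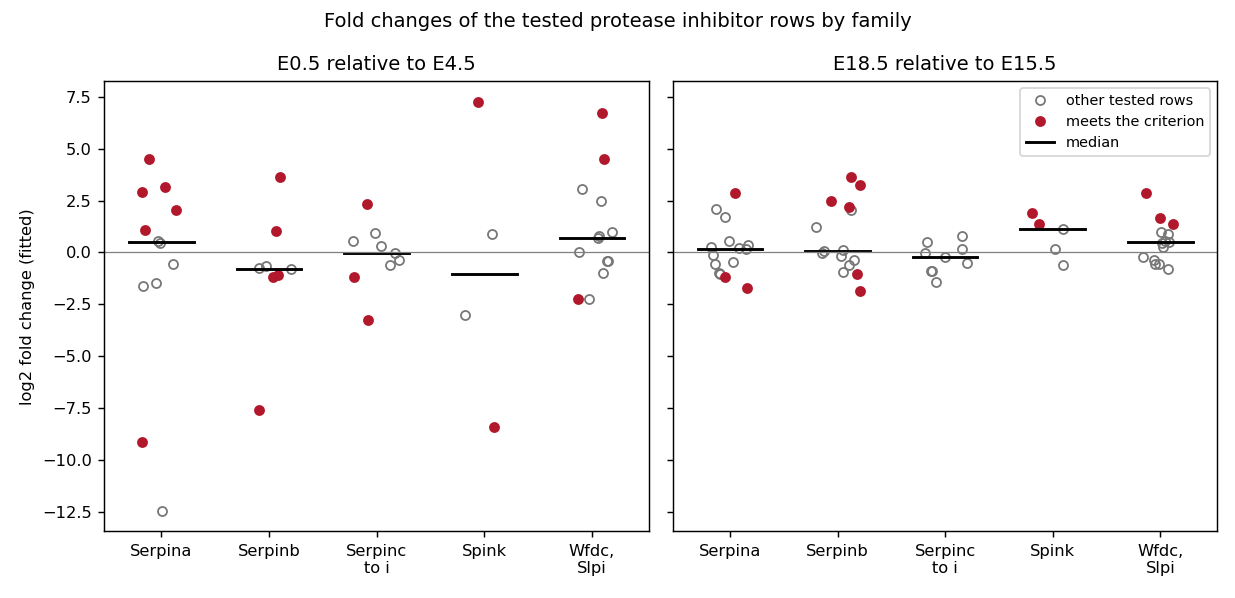
Fitted log2 fold change of each tested member row by family, E0.5 relative to E4.5 (left, 46 rows) and E18.5 relative to E15.5 (right, 58 rows), with filled points where the study's criterion is met and a bar at the family median. The left panel (edgeR on counts) runs from -12.47 (Serpina5, listed above 0 in 1 library) to 7.28, the right one is from limma on log2(FPKM + 0.1), so the spreads of the panels are not comparable, and no Serpinc to Serpini row meets the criterion at the labor stage.

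Of the small secreted inhibitors, 2 of 5 tested Spink rows and 3 of 14 Wfdc and Slpi rows met the criterion, all higher at E18.5, beside 6.05% of all tested rows and 3.11% in that direction. Wfdc2 was listed at 306, 202 and 182.2 FPKM at E18.5 and at 41.1, 60.6 and 139 at E15.5. All E18.5 libraries were above all E15.5 libraries, the ratio of the means was 2.86, and the log2 fold change was 1.67 ± 0.45 (limma, adjusted p = 0.227). Spink8 was listed at 17.2, 8.16 and 4.17 against 3.41, 1.10 and 2.63 FPKM, also without overlap, with 1.91 ± 0.58. Spink12 (0.414 ± 0.195 against 0.10 ± 0.073 FPKM), Wfdc18 (an extracellular proteinase inhibitor first known from mammary tissue; 1.79 ± 0.997 against 0.137 ± 0.047) and Wfdc8 (0.311 ± 0.208 against 0.0457 ± 0.0367) were low and met the criterion in the same direction. Wfdc8 lost it without E15.5 replicate 1 or 2 or E18.5 replicate 1 or 2 (1.02 to 1.83). The summed epithelial markers were higher in every E18.5 library as well, as were 6 of the 7 markers singly. Ltf was also higher, at 247, 218 and 161 FPKM against 10.99, 38.2 and 64.5, while none of the other 7 neutrophil markers was higher in every E18.5 library.

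Slpi was listed at 9.42, 6.76 and 11.6 FPKM at E18.5 and at 3.15, 7.16 and 11.3 at E15.5. Its days overlapped and its log2 fold change was 0.50 ± 0.45. Spink1 was listed at 6.79, 10.2 and 0.800 against 0.399, 1.18 and 9.42 FPKM, a spread within each day wider than the difference between them. Wfdc1 (7.99 ± 3.60 against 9.91 ± 2.24 FPKM) also overlapped. Wfdc15b, an antibacterial epithelial protein, had 4.15 against 7.21 FPKM and separated days, but its log2 fold change of -0.79 ± 0.20 stayed under the criterion. Other abundant members with overlapping days were Wfdc10 (33.5 and 24.5 FPKM), Wfdc17 (27.6 and 22.6) and Wfdc16 (12.4 and 7.44).

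In clade B, Serpinb9c, Serpinb9d and Serpinb9g met the criterion and were higher at E18.5, while Serpinb9 and Serpinb9b had log2 fold changes below 0 that did not meet it. Serpinb9d was listed at 6.35, 7.35 and 6.16 FPKM at E18.5 and at 1.94, 0.197 and 0.151 at E15.5. Serpinb9c was listed at 1.81, 2.32 and 2.82 against 0.511, 0.0332 and 0.0957, and Serpinb9g at 2.36, 2.86 and 1.84 against 1.44, 0.211 and 0.0616. In these 3 rows every E18.5 library was the higher one, and the highest E15.5 value was that of replicate 1. Their log2 fold changes were 3.65 ± 0.76 (Serpinb9d; limma, adjusted p = 0.158), 3.24 ± 0.56 (Serpinb9c; 0.126) and 2.5 ± 0.77 (Serpinb9g; 0.278). Without E15.5 replicate 1 they were 4.62, 3.88 and 3.43. Serpinb9e (2.05 ± 0.87) and Serpinb9f (1.22 ± 0.60) had the same sign and did not meet the criterion.

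Summed over Serpinb9c to Serpinb9g, the level was 15.4, 18.4 and 15.3 FPKM at E18.5 and 9.30, 1.35 and 0.715 at E15.5. The summed level of 10 trophoblast and placenta markers moved with it: 122, 151.4 and 106 FPKM at E18.5 and 34.0, 7.35 and 6.48 at E15.5. None of the 10 was at 0 in any library of the stage, and 5 of them (Ceacam11, Prl2c5, Prl8a6, Tpbpa and Tpbpb) were higher in every E18.5 library. The days overlapped in Prl3b1, Prl8a8, Psg17, Psg21 and Syna. Prl3b1 was listed at 0.734, 1.97 and 2.93 FPKM at E18.5 and at 5.14, 1.59 and 1.14 at E15.5. Serpinb9 was listed at 4.6, 4.06 and 4.61 FPKM at E18.5 and at 11.1, 5.72 and 4.90 at E15.5, its days separated by little and its log2 fold change -0.61 ± 0.30, and Serpinb9b had 5.86 against 13.5 FPKM and -0.95 ± 0.46. Both were highest in E15.5 replicate 1, and without it the log2 fold changes were -0.26 and -0.37. Serpinb6c was lower at E18.5, at 0.903, 1.85 and 4.04 against 11.4, 6.57 and 4.89 FPKM (-1.86 ± 0.54), while Serpinb6a, the more abundant paralog, averaged 19.7 ± 1.51 and 26.3 ± 9.71 FPKM with overlap. Serpinb11, on chromosome 1, was listed at 3.95, 2.24 and 1.97 against 0.129, 0.588 and 1.18 FPKM and was higher in every E18.5 library (2.20 ± 0.62). Serpinb2 (plasminogen activator inhibitor-2) was at 0.0360 ± 0.0351 against 0.183 ± 0.105 FPKM, and its -1.03 ± 0.43 lost the criterion without E15.5 replicate 1 or 2 or E18.5 replicate 1 or 2 (-1.21 to -0.75).

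**Figure D3:**
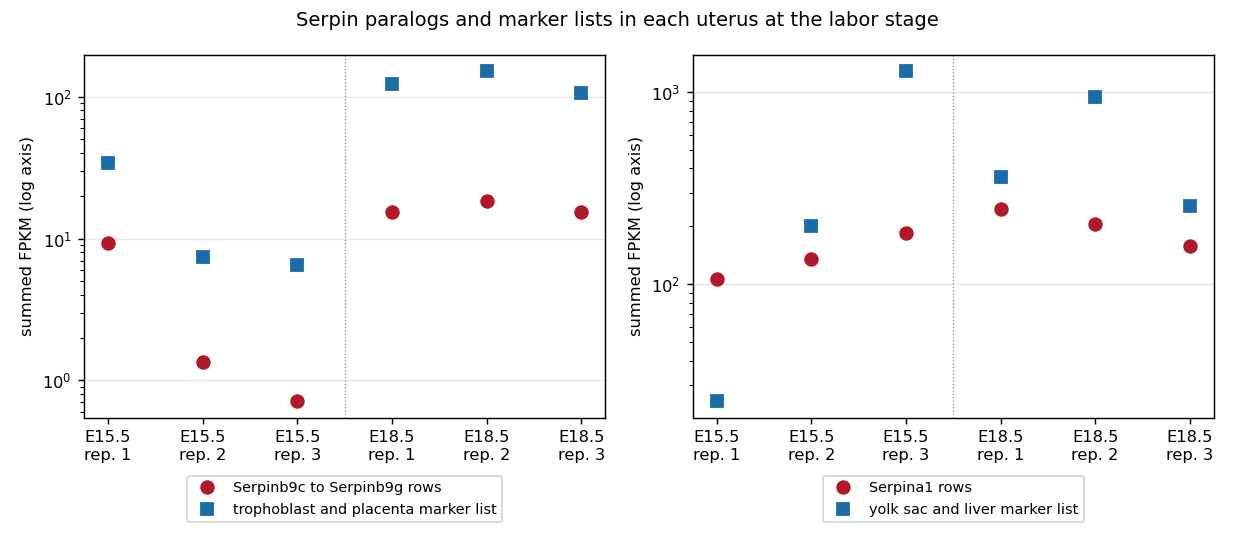
Summed FPKM (log axis) in each labor-stage library for the Serpinb9c to Serpinb9g rows beside the trophoblast and placenta markers (left) and for the Serpina1 rows beside the yolk sac and liver markers (right). On the left both sums are highest at E18.5 and lowest in E15.5 replicates 2 and 3, while on the right the Serpina1 sum is 107 FPKM in E15.5 replicate 1, where the marker sum is 24.7.

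In clade A, the Serpina1c/e row was among the most abundant of all members at the labor stage, at 239, 192 and 150.5 FPKM at E18.5 and 107, 126 and 160 at E15.5. Its days overlapped and its log2 fold change was 0.56 ± 0.24 (limma, adjusted p = 0.421). The other Serpina1 rows were far lower and varied within a day. Serpina1b was listed at 5.98, 7.10 and 3.29 against 0, 3.61 and 11.2 FPKM, and Serpina1a at 0.169, 4.92 and 2.83 against 0, 3.05 and 9.08. Serpina1a, Serpina1b and Serpina1d were all listed at 0 in E15.5 replicate 1, where 10 yolk sac and liver markers summed to 24.7 FPKM against 202 to 1285 in the other 5 libraries. The Serpina1c/e row kept 107 FPKM there. In E18.5 replicate 1, where the same markers summed to 363 FPKM, Serpina1d was likewise at 0 and Serpina1a at 0.169 FPKM.

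Serpina3g was lower at E18.5, at 1.11, 0.850 and 1.15 FPKM against 4.59, 3.21 and 3.02 at E15.5. The libraries of each day were close together and the days far apart, with a log2 fold change of -1.69 ± 0.22 (limma, adjusted p = 0.0788). Serpina3n, an inhibitor of granzyme B, was also lower, at 10.2, 7.10 and 10.7 against 24.8, 26.2 and 14.8 FPKM (-1.21 ± 0.26). Serpina4-ps1, a pseudogene, was listed at 0 in all E15.5 libraries and at 1.52, 2.42 and 0 FPKM at E18.5, and it met the criterion in 1 of the 6 fits that leave out a library, the one without E18.5 replicate 3.

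No serpin of clades C to I met the criterion at the labor stage, although 3 of 9 tested rows had an unadjusted p under 0.05 and 4 separated the days (12.2% and 19.9% of all tested rows did). Serpine2 was listed at 16.1, 22.3 and 14.7 against 7.80, 9.69 and 12.7, the E18.5 libraries all the higher (0.81 ± 0.23). Serpinf1 was listed at 47.2, 43.9 and 45.5 against 25.9, 30.9 and 42.8 (0.49 ± 0.19). The low Serpini1 was listed at 0.150, 0.194 and 0.171 against 0.471, 0.220 and 0.213, the E18.5 libraries all the lower (-0.51 ± 0.36). Serping1 (147 ± 20.7 against 173 ± 14.7 FPKM) and Serpinh1 (184 ± 51.5 against 158 ± 5.54) were high on both days and overlapped. Of the plasminogen activator system, Plat (0.46 ± 0.12) and Plaur (0.75 ± 0.17) were higher in every E18.5 library but under the criterion, and Plau was not (-0.08 ± 0.19). The 30 other tested members, which did not meet the criterion and were not named by rule, had log2 fold changes from -1.40 (Serpinf2) to 2.10 (Serpina5). The plot of levels at E18.5 and E15.5 shows the named rows.

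**Figure D4:**
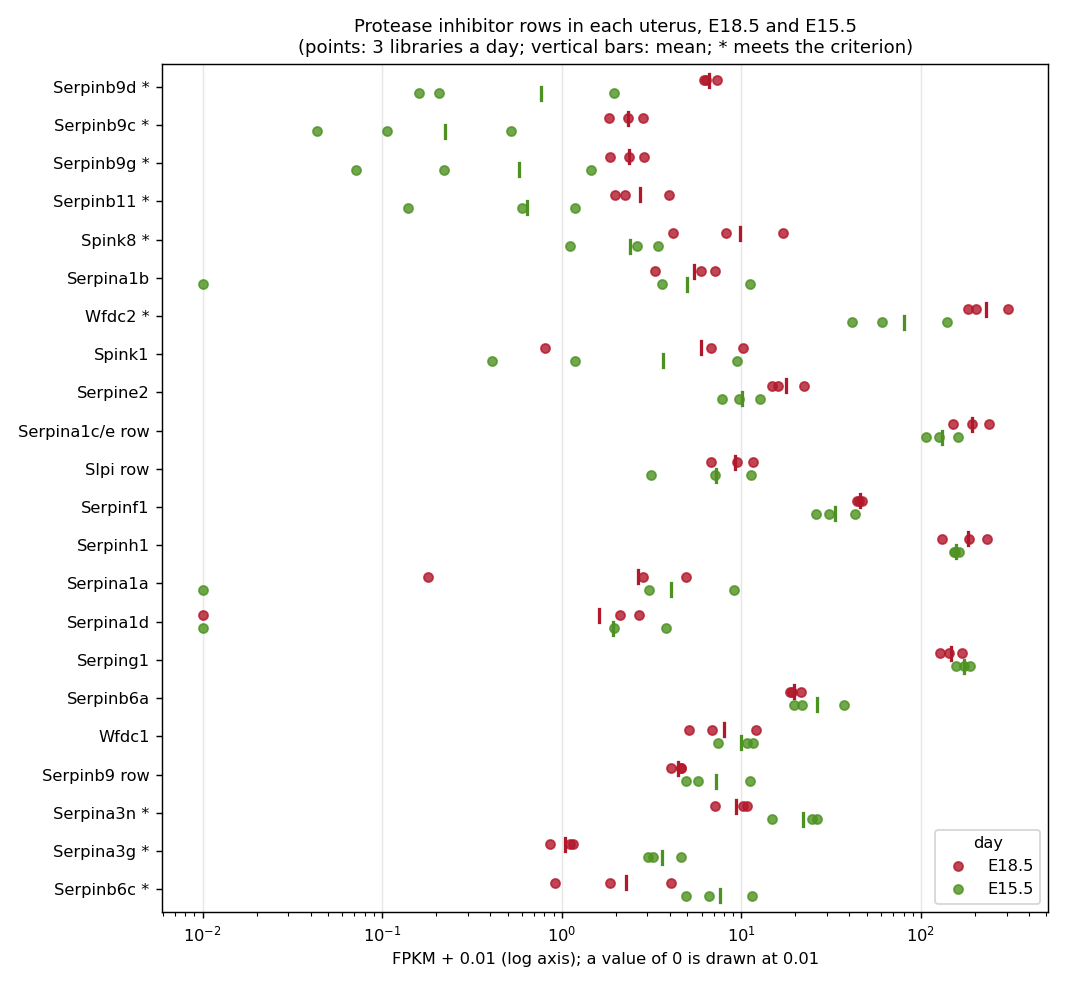
Level of the named protease inhibitor rows in each library of E18.5 (red) and E15.5 (green), as FPKM + 0.01 on a log axis, with a bar at the mean of 3 libraries and a star where the study's criterion is met. Serpinb9d lies at 6.16 to 7.35 FPKM at E18.5 and at 0.151 to 1.94 at E15.5, and Wfdc2 at 182.2 to 306 against 41.1 to 139.

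Of the same list of proteases and partners, 50 rows were tested and 9 met the criterion, 2 higher and 7 lower at E18.5 (6.05%, 3.11% and 2.93% of all tested rows). By limma none passed the adjusted p and 18 had an unadjusted p under 0.05 (12.2% of all tested rows). The lower ones included targets of the inhibitors above. Granzyme B, Gzmb, the protease that Serpinb9 and Serpina3n inhibit, was listed at 3.03, 4.44 and 14.2 FPKM at E18.5 and at 180.8, 92.3 and 51.3 at E15.5 (-4.01 ± 0.65). Gzmc was listed at 18.6, 24.9 and 83.2 against 762, 333 and 247 FPKM (-3.55 ± 0.64), and cathepsin G, Ctsg, at 1.92, 2.01 and 6.08 against 42.2, 17 and 14.8 (-2.89 ± 0.55). The broad inhibitor A2m was listed at 30.4, 37.5 and 45.3 against 622, 216 and 118 FPKM (-2.75 ± 0.56). Each was highest in E15.5 replicate 1, and without it the log2 fold changes were -3.55, -3.08, -2.43 and -2.10. The 2 higher ones were Hgfac (1.77 ± 0.67, which met the criterion in only 1 of 6 fits that leave out a library, the one without E15.5 replicate 3, over a range of 0.97 to 2.40) and the mast cell tryptase Tpsb2 (1.55 ± 0.35). The 5 mast cell markers, Tpsb2 among them, summed to 17.1 to 26.8 FPKM at E18.5 and 8.39 to 16.8 at E15.5. Of these, Tpsb2, Cpa3 and Mcpt4 were each higher in every E18.5 library, while Cma1 and Kit overlapped. Kit was listed at 1.35, 1.56 and 1.26 FPKM at E18.5 and at 3.23, 2.03 and 1.46 at E15.5.

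To compare the stages, 44 pairs of member rows sharing Ensembl transcripts were fitted over all 12 libraries with limma, as the difference between the E0.5 to E4.5 and the E18.5 to E15.5 log2 fold change. The merged Serpina1a/c/e and Serpinb6a/c rows of the implantation stage each entered more than 1 pair, with different labor rows, so the pairs are not all separate. The difference passed an adjusted p under 0.05 in 6 pairs (2.64% of all 22056 pairs did), among them Serpine2, Spink12, Serpinb5, Serpina3g and Wfdc16. On the FPKM scale the log2 fold changes of Serpine2 were -3.11 and 0.81, a difference of -3.92 ± 0.51 (limma, adjusted p = 0.00537). Serpina3g had 1.06 and -1.69, while Spink12 (5.41 and 1.35) and Wfdc16 (5.10 and 1.0) had the same sign in both stages and differed in size. Serpinb5 had 2.83 and 0.06. When each library was left out in turn, Serpine2, Spink12 and Serpinb5 kept the adjusted p in 12 of 12 fits, Serpina3g in 11 and Wfdc16 in 7. The criterion was met in both stages by 3 of the 44 pairs (1.09% of all pairs did), Spink12 and Wfdc8 in the same direction and Serpina3g in opposite ones.

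**Figure D5:**
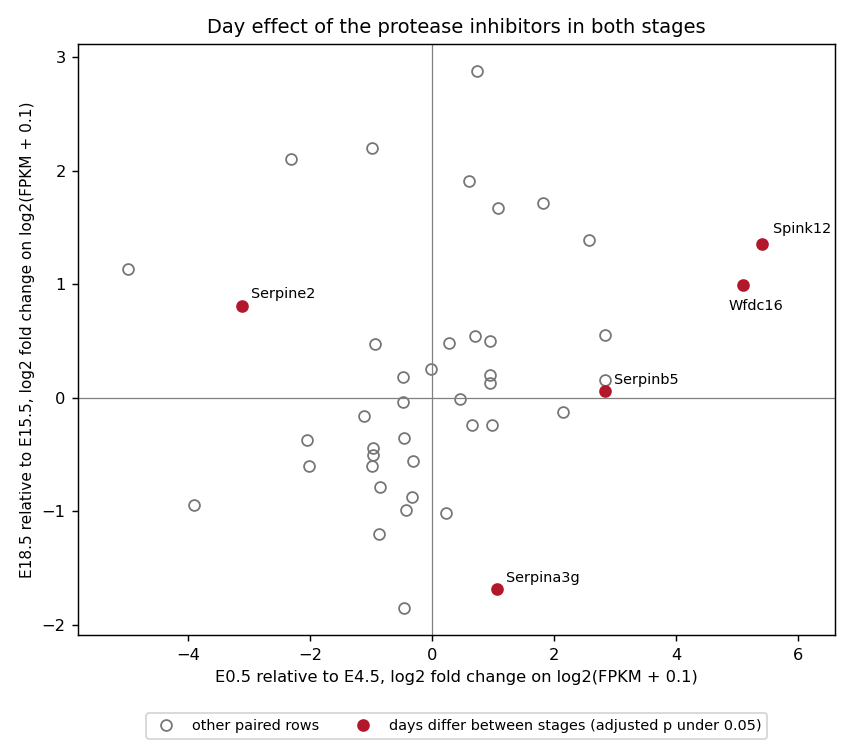
Log2 fold change on log2(FPKM + 0.1) at E0.5 relative to E4.5 (x axis) and at E18.5 relative to E15.5 (y axis) for 43 pairs of member rows, filled where the difference between the stages passed an adjusted p under 0.05. Serpine2 lies at -3.11 and 0.81, and Serpina3g at 1.06 and -1.69, on opposite sides of both axes.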

How the data were processed

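RNA of the whole uterus was sequenced from 12 ICR mice. Per the labels, libraries were poly(A)-selected and run on a NovaSeq, while the methods name a ribosomal RNA depletion kit and a HiSeq instrument. The submitters' processing notes name Bowtie 0.12.2, HISAT2 2.0, StringTie 1.3.0 and the builds mm8 and mm10, and the methods name Cutadapt, Bowtie2, Tophat2, StringTie and Ballgown. The authors computed FPKM for each stage on its own and deposited 1 table per stage. The counts of the implantation stage were deposited by the authors with its FPKM values, and how reads were assigned to rows is not given in the sources used here. The implantation table writes 0.0001 for an FPKM of 0, which was set back to 0 (168941 values, none with a count above 0). Between 1.02% and 1.86% of a library's counts fell in unnamed rows.

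A row was tested when it averaged 0.1 FPKM or more in its stage. In R 4.3.3, edgeR 4.0.16 (quasi-likelihood test, TMM factors) was run on the implantation counts, and limma 3.58.1 with a trend on log2(FPKM + 0.1) for the labor table, which holds no counts. Benjamini-Hochberg adjustment ran over every row tested in the stage. The stages were set against each other with limma over the 12 libraries, on rows paired by shared Ensembl transcripts. Scripts were checked on simulated data. DESeq2 1.42.0 and the other alternatives, 78 in all, are described in the closing section. Intervals are SE for fold changes and SD for levels. Permuting 3 libraries against 3 cannot give an exact two-sided p below 0.1, so no such test was used.

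Rows named without an Ensembl transcript (18 and 6) were left out of the members. Genes were named by rule: members with a mean of at least 1 FPKM that met the criterion or the adjusted p, and, whatever their result, Slpi, Serpine2, Serpinf1, Serping1, Serpinh1, Serpina1a to Serpina1e, Serpina3g, Serpina3n, Serpinb6a, Serpinb9, Spink1, Wfdc1 and Wfdc2. Other members, and partners that did not meet the criterion, were named after their values were seen. One member that the totals count is not reported here. The members, the partner list and the marker lists were chosen with earlier results of these data known.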

Additional observations from a re-analysis of the deposited data

Results flagged for a closer look

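The stages differed in the day effect (the log2 fold change of E0.5 over E4.5 minus that of E18.5 over E15.5, limma on log2(FPKM + 0.1) over 12 libraries) at an adjusted p under 0.05 for 6 members, among them the 5 given here. Serpine2 had -3.92 ± 0.51 (adjusted p = 0.00537), Spink12 4.05 ± 0.53 (0.00559) and Serpinb5 2.78 ± 0.45 (0.0111), and each passed in all 12 fits that leave out a library. Serpina3g had 2.75 ± 0.48 (0.0163) and did not pass without E18.5 replicate 2 (adjusted p = 0.0532, the highest of its 12 fits). Wfdc16 had 4.10 ± 0.78 (0.0233), with adjusted p-values of 0.00252 to 0.0671 over those fits, and did not pass without E0.5 replicate 1, E4.5 replicate 1, E15.5 replicate 2 or E18.5 replicate 1 or 3.

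Some rows of the implantation table carry a member's name but no Ensembl transcript, and so entered no comparison. A second Serpina1a/b row averaged 3.88 FPKM over the 6 libraries, with 6.91 ± 2.09 (SD, n = 3) at E0.5 and 0.848 ± 0.759 at E4.5, and every E0.5 library was above every E4.5 library. A Serpina3i row averaged 2.30 FPKM, with 2.36 ± 0.825 and 2.23 ± 1.40. A Spink4 row averaged 3.74 FPKM, with 4.27 ± 0.789 and 3.20 ± 0.995.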

How the results depend on the processing

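The criterion count at the implantation stage stayed within 16 to 20 of 46 rows when a library was left out (15 or 16 of them among the 19), was 23 with no filter and 11 with limma and a pseudocount of 1. The adjusted count of 4 was 16 with DESeq2, 0 with the replicate number as a block (20 rows at an unadjusted p under 0.05) and 0 to 15 when a library was left out, and the 4 rows were among the 16 and the 15. Of the 4, limma kept 3 with a pseudocount of 0.1 and 2 with 1, and a filter at 1 FPKM kept 3. The shares of all tested rows in the DESeq2 fit, the block and the fit without E4.5 replicate 3 were 9.74%, 0% and 6.19%. The median of 0.002 was -0.50 with no filter and -0.54 to 0.38 without a library. The partner count of 11 ran from 9 to 18. At the labor stage the criterion count ran from 11 to 16 without a library and from 10 to 15 in the other fits, the adjusted count from 0 to 2, the median from 0.03 to 0.23 and the partner count of 9 from 5 to 12. The 6 differences between the stages became 1 with the replicate block (0.322% of all pairs passed) and 4 to 11 without a library (0.875% to 5.76%). Among members named by rule, directions that turned were those of the Serpina3a/j row (4.41 without E4.5 replicate 3, -13.62 without E0.5 replicate 1), the Serpinb6a/c row (0.19 without E4.5 replicate 3, -1.08 without E4.5 replicate 2) and Slpi (-0.027 without E0.5 replicate 1, 2.10 without E4.5 replicate 1). At the labor stage they were those of Serpina1a (-0.21 with a pseudocount of 1, and -1.76 to 1.495 without a library, negative without E15.5 replicate 1 or E18.5 replicate 2 or 3), Serpina1b (-0.29 without E15.5 replicate 1, up to 3.12), Serpina1d (-1.73 to 1.42, positive without E15.5 replicate 2 or 3 or E18.5 replicate 1) and Serpinh1 (-0.015 without E18.5 replicate 3, up to 0.40). Of the members not named by rule, 7 and 11 tested rows of the 2 stages, none of which met the criterion, also turned without a library. The cause of these shifts was not tested. Same-numbered libraries did not deviate together (correlations of -0.06 to 0.02 in both stages), so the numbers were not taken to pair the libraries. The near-zero rows are limited by depth, and for the labor stage by the lack of counts.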
